A study of Mus musculus with 8 samples.

Results

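The surface marker genes of muscle stem cells described here are Calcr, Cxcr4, Met, Tnfrsf12a, Vcam1, Ncam1, Cd34 and Cd82. They are 8 of the 57180 genes in the deposited tables, chosen by name because their proteins are used to define or sort these cells, and each was found under a single identifier. Gene expression was measured by RNA sequencing of muscle stem cells, the Pax7-expressing progenitors that lie between a muscle fibre and its basement membrane, which had been sorted by flow cytometry from mouse muscle and sequenced without culture. The 4 control libraries (replicates 2, 5, 7 and 8) are labelled WT in the titles and control in the series text. The 4 RhoA het libraries (replicates 5, 6, 7 and 8) are called RhoA het in the titles, RhoA knockdown under genotype, and SC-RhoAfl/+ in the series text, that is, 1 floxed allele of RhoA beside an intact one in the stem cells. The sources used here do not give the Cre driver, what the control animals carry, the age and sex of the mice, the sorting gate, or whether each library came from 1 animal. The p-values below therefore measure the spread between these libraries.

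A resting muscle stem cell is held in place and kept out of the cell cycle by signals received through its surface, and sorting protocols use the same proteins as handles. Calcr, the calcitonin receptor, is known to keep these cells in their niche and is lost when they activate. Vcam1 is an adhesion molecule used for their positive selection, Cd34 a sialomucin of resting stem cells, and Cxcr4 the receptor of the chemokine Cxcl12. Ncam1 and Cd82 are used for sorting human muscle stem cells. Met, the receptor of hepatocyte growth factor, acts in alerting and activating the cells, and Tnfrsf12a (also called Fn14, the receptor of the cytokine TWEAK) is known as a receptor induced by injury. The list therefore holds genes of resting and of responding cells, and the genes are called surface markers of muscle stem cells below. In bulk RNA, fewer cells of a type and less RNA per cell cannot be told apart.

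For orientation, the promoter stretches of 3 of these genes are shown: that of Tnfrsf12a, the most abundant of them per length, that of Met, the least abundant, and that of Cxcr4, which had the widest range between libraries. Each is the 250 bases before the annotated start, 5′ to 3′ on the gene's strand, from RefSeq on GRCm38.p6 (chr17:23677450-23677699, minus strand; chr6:17463707-17463956, plus strand; chr1:128592300-128592549, minus strand). Capitals mark matches of motifs searched on both strands: the GC box, with the letters GGGCGG, the TATA box, with the letters TATAAA, and the motif of the transcription factor AP-1, with the letters TGANTCA.
Tnfrsf12a: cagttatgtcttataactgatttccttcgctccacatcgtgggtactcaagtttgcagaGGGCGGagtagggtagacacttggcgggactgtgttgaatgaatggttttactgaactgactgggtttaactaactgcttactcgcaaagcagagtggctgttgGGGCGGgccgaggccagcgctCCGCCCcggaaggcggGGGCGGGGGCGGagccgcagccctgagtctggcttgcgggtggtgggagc
Met: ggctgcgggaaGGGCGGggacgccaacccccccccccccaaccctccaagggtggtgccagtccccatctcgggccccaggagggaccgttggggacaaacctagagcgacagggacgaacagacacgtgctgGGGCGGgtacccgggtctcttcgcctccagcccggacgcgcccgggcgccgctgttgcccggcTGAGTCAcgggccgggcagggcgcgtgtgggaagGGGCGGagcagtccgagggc
Cxcr4: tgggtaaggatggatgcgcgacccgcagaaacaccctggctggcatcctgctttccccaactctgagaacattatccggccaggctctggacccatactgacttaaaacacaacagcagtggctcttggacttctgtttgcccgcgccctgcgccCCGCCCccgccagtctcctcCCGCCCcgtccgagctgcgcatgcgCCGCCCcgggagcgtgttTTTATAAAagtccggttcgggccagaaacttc
The Tnfrsf12a stretch held 5 matches of GGGCGG, the Met stretch 3 and 1 of TGANTCA, and the Cxcr4 stretch 3 of GGGCGG and 2 overlapping matches of TATAAA. Of the 6 surface marker genes in the RefSeq table (10 promoters, 4 of them of Cd82), 5 had GGGCGG, which 32.7% of the 32851 promoter stretches of this length hold. Cxcr4 alone had TATAAA (12.4% of all stretches) and Met alone TGANTCA (6.75%). GGAATG, the TEAD motif, was found for Cd82 alone (12.6%), and CAGCTG, an E-box, for none of the 6 (13% of all). These matches are descriptions of the letters in these stretches, and no binding was measured.

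Total assigned fragments per library ran from 19138763 to 25606342. Muscle stem cell genes were present in every library: Pax7 averaged 130.1 ± 30.5 CPM (fragments scaled to library size, with TMM factors) in control and 91.6 ± 13.0 in RhoA het (4 libraries a group, ± SD). The Pax7 groups did not overlap, as for 1.81% of all genes tested (exact permutation p 0.0286, the smallest possible, adjusted p 0.9998 in edgeR). Pax7 was the 1 such gene among 12 listed muscle stem cell identity genes. Of these, 4 had log2 fold changes above 0 and 8 below, with a median of -0.12. The integrin gene Itga7 averaged 477.6 ± 158 and 483.4 ± 88.9 CPM. The targeted gene, Rhoa, averaged 324.6 ± 46.3 CPM in control and 264.8 ± 14.4 in RhoA het, with overlapping groups (log2 fold change -0.29, edgeR unadjusted p 0.0495, adjusted p 0.9998). Some libraries stood apart. The TMM factor was 0.852 in control replicate 2 and 0.968 to 1.07 in the others, and a lower factor raises the CPM of a library. In RhoA het replicate 6, all 10 endothelial marker genes were above every other library and their summed CPM was 745.1, against 116.5 to 221.1 elsewhere. In the libraries numbered 5 of both groups, 13 of 15 cell cycle genes were above all other libraries (summed CPM 541.2 in control and 416.3 in RhoA het, against 154.8 to 221.3), and 14 dissociation response genes summed to 24040 and 22160 CPM, against 35030 to 51470 elsewhere. Y-linked genes had 14358 fragments in control replicate 2, 14659 in RhoA het replicate 6, and 2 or fewer elsewhere. Xist, an RNA of the inactive X chromosome, was at 0.26 and 0.33 CPM in these 2 libraries and at 181.9 to 232.6 elsewhere. By these genes the 2 libraries read as male and the others as female. Markers that sorts of these cells usually exclude were low outside RhoA het replicate 6: Pecam1 (CD31) was at 137.3 CPM there and at most 16.11 elsewhere, and Ptprc (CD45) at 4.42 and at most 0.47.

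Levels of different genes were compared per length, as TPM (counts divided by gene length and scaled to a common total per library), over all 8 libraries. The surface markers fell into a high group and a low group. Tnfrsf12a averaged 2987 ± 362 TPM and Cd82 2800 ± 171 TPM (SD over 8 libraries), which placed them 40th and 43rd of all 57180 genes. Vcam1 averaged 1066 ± 328 TPM (rank 132). The others were lower, with Ncam1 at 198.3 ± 47.8 TPM (rank 787), Cd34 at 147.3 ± 28.8 (rank 1045), Calcr at 80.0 ± 20.8 (rank 1808), Cxcr4 at 55.2 ± 19.8 (rank 2417) and Met at 44.5 ± 12.6 (rank 2899). The 8 genes together took 0.752% to 1.02% of all fragments, and Vcam1 alone 0.187% to 0.491%. Cd82 took 0.243% to 0.293%, a range inside that of Vcam1. The gene lengths used were 3005 bases for Cd82 and 8870 for Vcam1. The gap between these genes in TPM therefore depends on this divisor, which is the same in every library.

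Not every neighbour in this order could be told apart. Within libraries, Cd82 exceeded Vcam1 by 2.72-fold on average, Vcam1 exceeded Ncam1 by 5.33-fold, Cd34 exceeded Calcr by 1.87-fold and Calcr exceeded Cxcr4 by 1.49-fold, each in 8 of 8 libraries (two-sided exact sign-flip permutation p 0.00781, the smallest possible, and 0.0137 after adjustment over the 7 neighbour pairs). That test counts every library as independent. It measures the spread between libraries and takes the gene lengths as given. With same-numbered libraries averaged into 1 unit, which leaves 5 units, these 4 differences kept their direction in 5 of 5 units but none passed (exact permutation p 0.0625, the smallest 5 units allow, adjusted 0.109). Tnfrsf12a exceeded Cd82 in 5 of 8 libraries by 1.06-fold on average (exact permutation p 0.227, adjusted 0.227; log2 ratios between -0.14 and 0.43). Ncam1 exceeded Cd34 in 6 of 8 by 1.33-fold (exact p 0.0859, adjusted 0.12), and Cxcr4 exceeded Met in 5 of 8 by 1.21-fold (exact p 0.172, adjusted 0.2). For these 3 pairs the difference lay within the spread between libraries. The order of group means was the same in control and RhoA het. In control replicate 2 and RhoA het replicate 6 Cd34 stood above Ncam1, with 150.4 and 119.2 TPM in the former and 176.0 and 151.3 TPM in the latter.

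**Figure D1:**
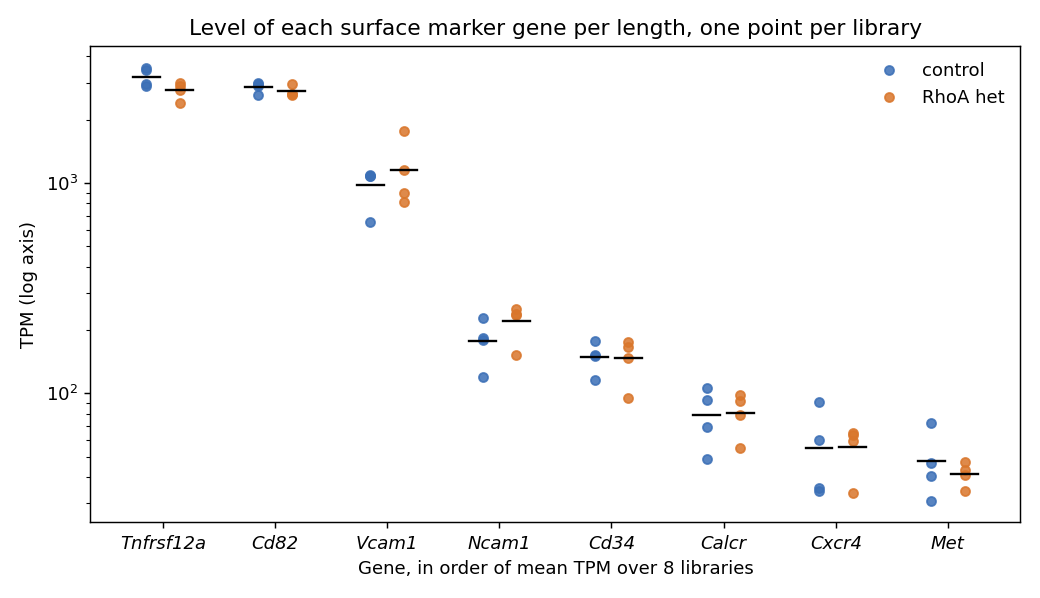
Level of each surface marker gene in TPM (log axis), one point per library, control in blue and RhoA het in orange, with the group mean as a black bar (n = 4 per group). Tnfrsf12a and Cd82 sit between 2410 and 3541 TPM, Vcam1 between 654.7 and 1762, and the other genes at or below 252.5.

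The comparison of RhoA het with control was made by the study, per its series text, to find expression changes after a reduction of RhoA activity. That activity was not measured in these files, and the Rhoa RNA values are given above. None of the 8 genes passed the test: 0 of 8 had an adjusted p under 0.05 in edgeR's quasi-likelihood test over 15660 genes, all 8 having passed the filter on low counts, and 0 of 8 had an unadjusted p under 0.05. Across all genes 0 were called (0%), and 372 (2.38%) had an unadjusted p under 0.05, 1.68% of all genes being higher in RhoA het and 0.696% lower at that level. DESeq2 likewise called 0 of 8 and limma on log2 TPM 0 of 8, with 0 of 8 at an unadjusted p under 0.05 in each. The groups overlapped for all 8 genes, while they did not overlap for 284 of all genes tested (1.81%). The median log2 fold change of the 8 was -0.074, beside -0.00071 over all genes, with 2 above 0 and 6 below. Every adjusted p given for a single gene below is from edgeR with Benjamini-Hochberg adjustment over all genes and equals 0.9998 unless stated, and each exact p comes from permuting log2 CPM through all 70 ways to assign 4 of 8 libraries (two-sided, smallest possible value 0.0286).

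Of the receptors, Calcr (ENSMUSG00000023964.16; mm39 chromosome 6, 3685680 to 3764714, minus strand) was at 104.1, 115.9, 109.1 and 62.5 CPM in control replicates 2, 5, 7 and 8. The values for RhoA het replicates 5, 6, 7 and 8 were 88.8, 124.8, 107.8 and 64.8 CPM. The libraries numbered 8 were the lowest in both groups, and the others overlapped. Group means were 97.9 ± 24.1 and 96.6 ± 25.8 CPM (± SD over 4 libraries, here and below), which gave a log2 fold change of -0.020 (SE 0.24, 95% interval -0.56 to 0.52; exact permutation p 0.943). The interval leaves room for a change of up to about 0.5 on the log2 scale in either direction.

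Cxcr4 (ENSMUSG00000045382.7; mm39 chromosome 1, 128515936 to 128520030, minus strand) had the fewest fragments of the list, 354 to 1309 per library. It was at 24.1, 30.2, 49.1 and 21.04 CPM in control replicates 2, 5, 7 and 8. Its values in RhoA het replicates 5, 6, 7 and 8 were 33.7, 35.04, 34.5 and 18.2 CPM. Control replicate 7 was the highest of all and the libraries numbered 8 the lowest, a 2.7-fold span. The means were 31.1 ± 12.6 and 30.4 ± 8.12 CPM, giving a log2 fold change of -0.036 with an interval from -0.70 to 0.62 (SE 0.29; exact permutation p 0.971). Without control replicate 7 the log2 fold change was 0.27.

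Met (ENSMUSG00000009376.16; mm39 chromosome 6, 17463799 to 17573979, plus strand) was at 91.7, 155.4, 107.4 and 101.6 CPM in control replicates 2, 5, 7 and 8. Values of RhoA het replicates 5, 6, 7 and 8 were 103.5, 86.0, 99.2 and 94.8 CPM. Control replicate 5 stood above all other libraries, which ranged from 86.0 to 107.4 CPM. The means were 114 ± 28.4 and 95.9 ± 7.49 CPM, giving a log2 fold change of -0.25 with an interval from -0.63 to 0.13 (SE 0.17; edgeR unadjusted p 0.17, exact permutation p 0.257). Without control replicate 5 it was -0.077. Control replicate 5 is also the library with the highest summed cell cycle genes, and Mki67, a marker of dividing cells, was at 57.6 CPM there and at 0.37 to 2.82 in the other controls. RhoA het replicate 5 also had high Mki67, at 37.6 CPM, while its Met value of 103.5 CPM lay within the range of the other libraries. The part of cell cycle RNA in the Met value was not tested. The lowest pair of libraries for Met was RhoA het replicate 6 and control replicate 2, the libraries with Y-linked fragments, and without both of them the log2 fold change was -0.32 (SE 0.18).

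Tnfrsf12a (ENSMUSG00000023905.16; mm39 chromosome 17, 23894419 to 23896442, minus strand) had the largest fold change of the 8 in size. It was at 2579, 1559, 2051 and 1866 CPM in control replicates 2, 5, 7 and 8. Its values in RhoA het replicates 5, 6, 7 and 8 were 1660, 1744, 1679 and 1402 CPM. Of the controls, 3 lay above every RhoA het library, and control replicate 5 lay below 3 of the 4. In TPM the highest library was control replicate 7, at 3541, with control replicate 2 at 3449. The means were 2014 ± 428 and 1621 ± 151 CPM, and the log2 fold change was -0.31, or 19.5% lower in RhoA het (SE 0.18, interval -0.71 to 0.083; edgeR unadjusted p 0.108, exact permutation p 0.143). Leaving out single libraries moved the value between -0.43 (without control replicate 5, unadjusted p 0.0298, adjusted p 0.9995 in edgeR) and -0.17 (without control replicate 2). Without control replicate 5, 703 of 16112 genes had an unadjusted p under 0.05. Summed dissociation response genes, which include stress and immediate early genes, were also highest in control replicate 2 (51470 CPM) and low in control replicate 5 (24040 CPM). Among the RhoA het libraries the order differed: the sum was lowest in replicate 5 (22160 CPM), where Tnfrsf12a was at 1660 CPM, while Tnfrsf12a was lowest in replicate 8, whose sum was 36600 CPM. RhoA het replicate 6, with a sum of 45680 CPM, held 1744 CPM of Tnfrsf12a. The part of these genes was not tested.

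**Figure D2:**
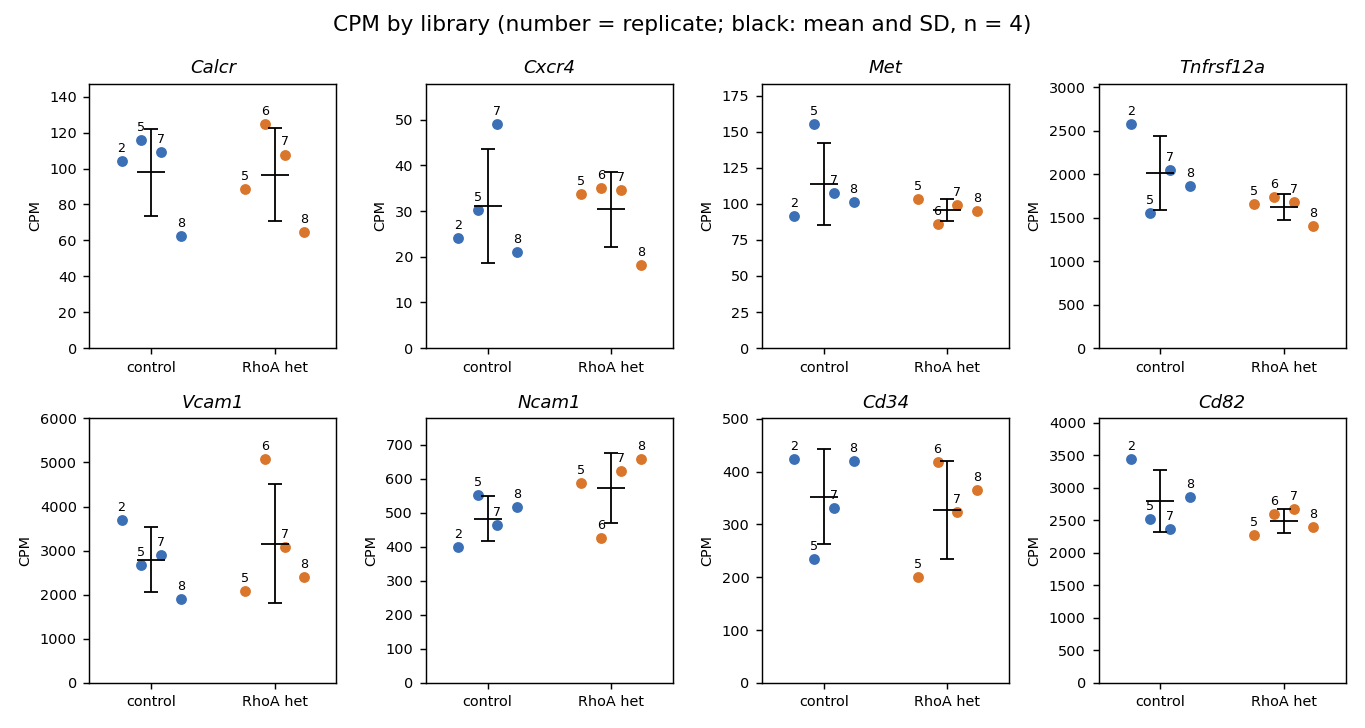
CPM of each surface marker gene, one point per library with its replicate number (control in blue, RhoA het in orange), with the mean and SD of each group in black (n = 4), on axes that start at 0. The groups overlap in all 8 panels; Calcr is lowest in the libraries numbered 8 (62.5 and 64.8 CPM) and Cd34 in those numbered 5 (234.8 and 199.9 CPM).

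Of the adhesion molecules, Vcam1 (ENSMUSG00000027962.15; mm39 chromosome 3, 115903598 to 115923337, minus strand) varied most between RhoA het libraries. It was at 3691, 2668, 2902 and 1901 CPM in control replicates 2, 5, 7 and 8. The values for RhoA het replicates 5, 6, 7 and 8 were 2081, 5085, 3082 and 2397 CPM. RhoA het replicate 6 was the highest of all, and the other RhoA het libraries lay inside the control range. The means were 2790 ± 737 and 3161 ± 1349 CPM, giving a log2 fold change of 0.18 with an interval from -0.50 to 0.86 (SE 0.30; exact permutation p 0.743). Without RhoA het replicate 6, the library in which all 10 endothelial genes were highest, it was -0.15 (SE 0.25). Endothelial cells can express Vcam1 too, and the part of such cells in the value of that library was not tested. RhoA het replicate 6 was also highest for 6 of 8 immune and 5 of 5 erythroid marker genes. Its summed immune CPM was 155.2, against 94.36 to 358.3 elsewhere, and the part of these cells was not tested. The next highest library for Vcam1 was control replicate 2, which shares the Y-linked fragments with RhoA het replicate 6 but had the lowest endothelial sum (116.5 CPM). Without both libraries the log2 fold change of Vcam1 was -0.0072 (SE 0.22).

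Ncam1 (ENSMUSG00000039542.17; mm39 chromosome 9, 49413436 to 49710225, minus strand) had the largest fold change above 0. It was at 399.9, 551.5, 463.1 and 517.1 CPM in control replicates 2, 5, 7 and 8. Its values in RhoA het replicates 5, 6, 7 and 8 were 588.0, 426.4, 622.3 and 658.9 CPM. RhoA het replicates 5, 7 and 8 lay above every control library, and RhoA het replicate 6 lay below 3 of the 4 controls. Control replicate 2 and RhoA het replicate 6, the libraries with Y-linked fragments, were the lowest pair of all, and the part of sex in these values was not tested. The means were 482.9 ± 66.2 and 573.9 ± 102 CPM, giving a log2 fold change of 0.25 with an interval from -0.13 to 0.63 (SE 0.17; edgeR unadjusted p 0.173, exact permutation p 0.229). Without RhoA het replicate 6 it was 0.37 (SE 0.15, unadjusted p 0.0391, adjusted p 0.9999 in edgeR). In that setting 314 of 16035 genes had an unadjusted p under 0.05. Without both libraries that hold Y-linked fragments it was 0.26 (SE 0.14). Ncam1 is also 1 of 6 genes on the Schwann marker list, of which 5 had log2 fold changes above 0 and 1 below (median 0.17). The part of Schwann RNA in the Ncam1 values was not tested. Exons of Ncam1 share 417 bases (4.81% of its exonic length) with Gm11149 on the opposite strand, and fragments there cannot be assigned without strand. The same holds for 0.688% of the exonic length of Vcam1 (Gm43109) and 2.03% of that of Cd34 (Gm16897).

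Cd34 (ENSMUSG00000016494.10; mm39 chromosome 1, 194621127 to 194643587, plus strand) was lowest in the libraries numbered 5, which had the most cell cycle RNA and also the lowest sums of dissociation response genes (24040 and 22160 CPM, against 35030 to 51470). It was at 424.4, 234.8, 331.1 and 420.9 CPM in control replicates 2, 5, 7 and 8. Its values in RhoA het replicates 5, 6, 7 and 8 were 199.9, 417.4, 323.3 and 365.2 CPM. Both libraries numbered 5 lay below all the others in either group. The means were 352.8 ± 89.7 and 326.4 ± 92.8 CPM, giving a log2 fold change of -0.11 with an interval from -0.68 to 0.46 (SE 0.25; exact permutation p 0.6). Without both libraries numbered 5 it was -0.10 (SE 0.16), and without RhoA het replicate 5 alone 0.062. The part of either list in the Cd34 values of the libraries numbered 5 was not tested. RhoA het replicate 6, where all 10 endothelial genes were highest, held the most Cd34 of the RhoA het libraries. Without it the log2 fold change was -0.25 (SE 0.27). Control replicates 2 and 8 held more Cd34, with endothelial sums of 116.5 and 142.2 CPM. The part of endothelial RNA in the Cd34 values was not tested.

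Cd82 (ENSMUSG00000027215.14; mm39 chromosome 2, 93249456 to 93293485, minus strand), a tetraspanin that organises membrane proteins, varied least. It was at 3448, 2517, 2371 and 2858 CPM in control replicates 2, 5, 7 and 8. Its values in RhoA het replicates 5, 6, 7 and 8 were 2272, 2594, 2677 and 2400 CPM. Control replicate 2 was the highest, and the remaining 7 libraries lay between 2272 and 2858 CPM. The means were 2799 ± 479 and 2486 ± 184 CPM, giving a log2 fold change of -0.17 with an interval from -0.53 to 0.19 (SE 0.16; exact permutation p 0.314). Without control replicate 2 it was -0.057. In TPM, where control replicate 2 was at 2964, the means were 2875 ± 166 and 2725 ± 160.

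**Figure D3:**
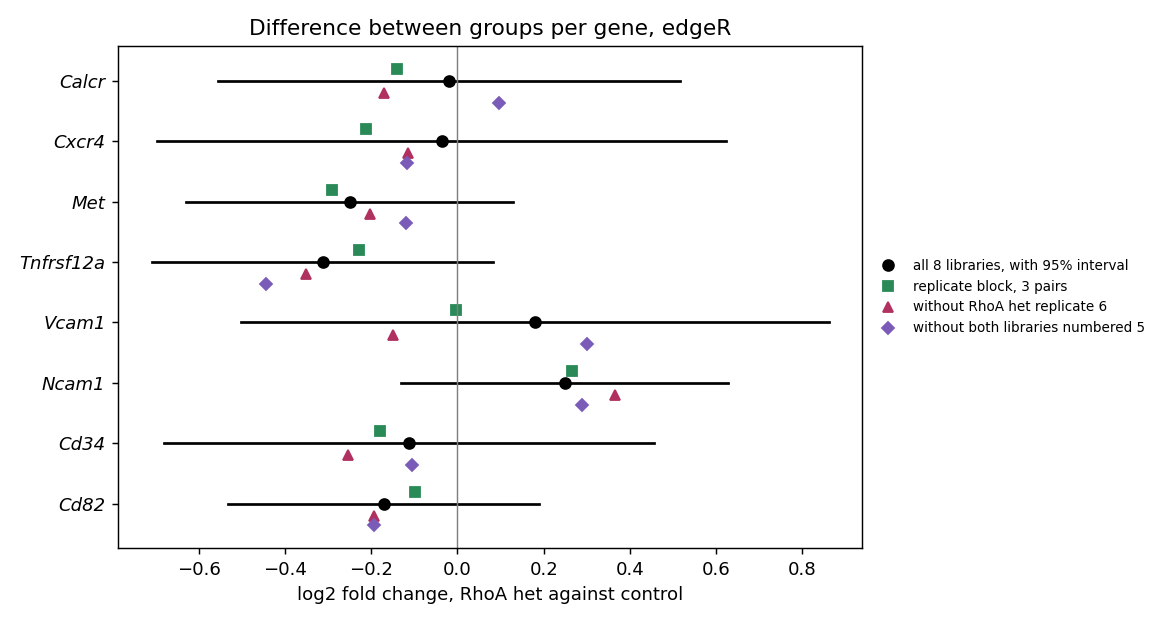
Log2 fold change of each surface marker gene, RhoA het against control, with its 95% interval from edgeR over all 8 libraries (black), and the values with replicate numbers blocked in 3 pairs (green squares), without RhoA het replicate 6 (red triangles) and without both libraries numbered 5 (purple diamonds). All 8 intervals include 0; Vcam1 moves from 0.18 to -0.15 without RhoA het replicate 6.

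Replicate numbers 5, 7 and 8 occur in both groups, which gives 3 pairs. Ncam1 was higher in the RhoA het library of all 3 pairs, by 0.092, 0.43 and 0.35 on the log2 scale for numbers 5, 7 and 8, as were 13.6% of all genes. Cd34 was lower in all 3, with differences of -0.23, -0.034 and -0.20, and so was Met, with -0.59, -0.12 and -0.10, as were 12.5% of all genes. The others differed in sign between pairs. With the number as a block, none of the 8 was called (adjusted p 0.927 to 0.999 in edgeR; 2 of 15714 genes, 0.0127%, were called). Both called genes, Acta1 (log2 fold change -1.32, adjusted p 0.0275 in edgeR) and Atp2a1 (-1.40, adjusted p 0.0349), encode proteins of the muscle fibre, the alpha actin of skeletal muscle and a calcium pump. Without the block, Acta1 was at -0.050 (SE 0.86) over all 8 libraries and at -1.37 (SE 0.78) in the 6 paired libraries. It was at 0.93 (SE 0.93) without both libraries numbered 5. All 10 genes of the myofibre marker list had log2 fold changes below 0 under the block, with a median of -1.21, and 8 of them were lower in RhoA het in all 3 pairs. Their summed level ran from 48.8 to 478.4 CPM over the 8 libraries, and the part of fibre RNA in the values of the surface markers was not tested. Met alone had an unadjusted p under 0.05 there (log2 fold change -0.29, p 0.0414, edgeR), as had 5.26% of all genes. In the same 6 libraries without the block, 0 of the 8 had one (1.77% of all genes).

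Across the 8 libraries irrespective of genotype, the markers differed in how much they varied. The SD of log2 CPM was 0.46 for Cxcr4, 0.46 for Vcam1, 0.41 for Cd34 and 0.38 for Calcr, above 88.3%, 88.1%, 84.5% and 81.5% of the genes with a mean of at least 10 CPM. It was 0.27 for Tnfrsf12a, 0.26 for Ncam1 and 0.26 for Met, and 0.19 for Cd82, above 31.6% of these genes. The lowest pair of libraries shared a replicate number for 3 of the 8 genes: number 8 for Calcr and Cxcr4 and number 5 for Cd34. This was so for 19.2% of all genes tested. The highest pair shared a number for none of the 8 (22.7% of all genes). In the libraries numbered 8, summed immune markers were at 358.3 and 322.3 CPM against 94.36 to 176.6 elsewhere, but 1 of the 8 listed genes, Lyz2 (352.2 and 313 CPM), was above every other library in both, and Itgam, C1qa and Cd3e were at 0 fragments in at least 1 of them. Their part in the Calcr and Cxcr4 values was not tested.

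Likeness between profiles was measured as the root mean square difference of centred log2 CPM over the 8 libraries, as a description. Among the surface markers the nearest pair was Cd82 and Tnfrsf12a, at 0.171, both highest in CPM in control replicate 2. In TPM, Tnfrsf12a was highest in control replicate 7 and Cd82 in control replicate 5. The next pairs were Calcr and Vcam1 at 0.285 and Calcr and Cxcr4 at 0.289. Among the genes with a symbol and at least 10 CPM, the nearest to Calcr were Dtx4 (0.0814) and Egfr (0.095), and the nearest to Vcam1 were Sowahc (0.101) and Pald1 (0.133). The nearest to Cd34 were Anxa11 (0.104) and Rabac1 (0.11), to Cxcr4 Dll1 (0.158) and Creld2 (0.159), and to Tnfrsf12a Lsm3 (0.0505) and Magoh (0.0652). Cd82 was nearest to Etf1 (0.0329) and Eif1ax (0.0458), Ncam1 to Prmt2 (0.081) and Slc5a3 (0.0923), and Met to Snapc2 (0.0693) and Aph1a (0.0883). Genes that vary little have small differences by this measure, so the values are not comparable between markers of different spread.

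**Figure D4:**
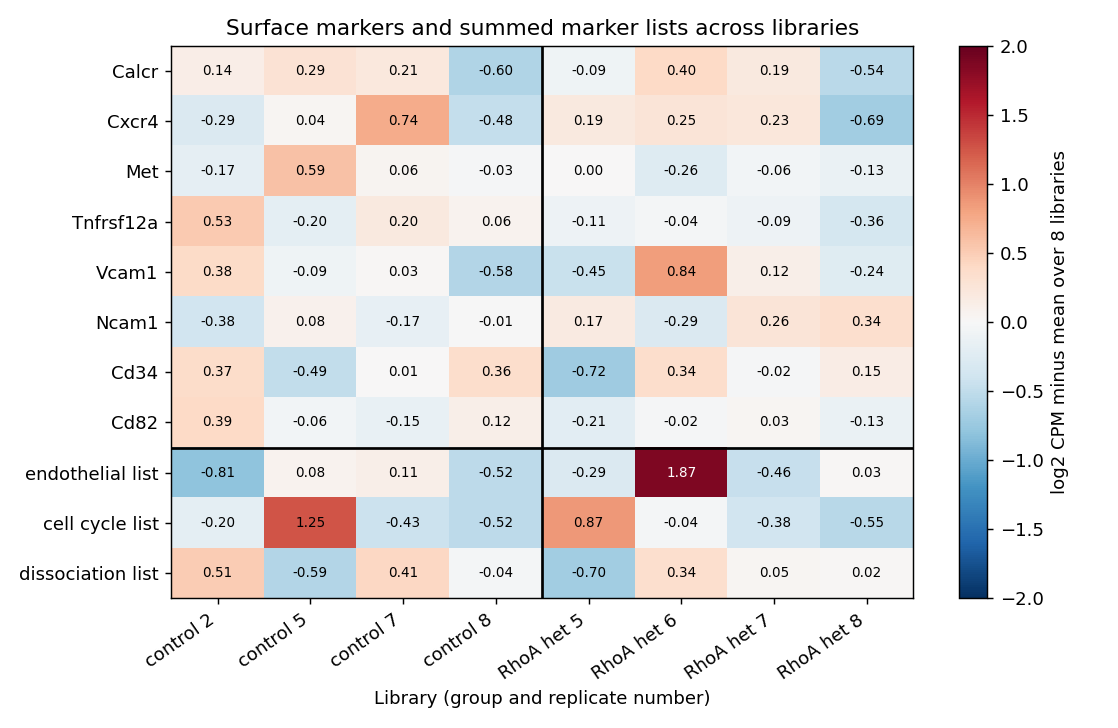
Log2 CPM of each surface marker gene minus its mean over 8 libraries (rows above the line), and the same for the summed CPM of the endothelial, cell cycle and dissociation lists (below), with control libraries left and RhoA het libraries right of the vertical line. Cd34 is at -0.49 and -0.72 in the libraries numbered 5, where the cell cycle list is at 1.25 and 0.87 and the dissociation list at -0.59 and -0.70, and Vcam1 is at 0.84 in RhoA het replicate 6, where the endothelial list is at 1.87.

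The ligands, co-receptors and signalling partners of the 8 markers were examined as a list of 55 genes, of which 50 passed the filter on low counts. None was called (0 of 50 in edgeR, DESeq2 and limma on log2 TPM, with 1, 1 and 0 at an unadjusted p under 0.05). The median log2 fold change was 0.033, beside -0.00071 over all genes, with 31 above 0 and 19 below. The ligand of Met, Hgf, was low, with 4.33 ± 4.55 CPM in control and 3.36 ± 1.51 in RhoA het. Control replicate 2 was its highest library, at 11.15 CPM. The log2 fold change of Hgf was -0.36 (SE 0.64) and turned to 0.70 (SE 0.42) without that library. With the replicate block it was 0.37 (SE 0.34). Tnfsf12, which encodes TWEAK, the ligand of Tnfrsf12a, was at 5.3 ± 1.36 and 5.78 ± 1.67 CPM. Of the receptor activity modifying proteins that pair with Calcr, Ramp2 was at 14.1 ± 3.63 and 16.3 ± 4.89 CPM and Ramp1 at 3.91 ± 2.64 and 4.74 ± 4.2. Col5a1, a chain of collagen V, which is known to signal through Calcr, was at 119.8 ± 81 and 121.9 ± 38.7 CPM.

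For the Cxcr4 axis, the ligand Cxcl12 was at 905.7 CPM in control replicate 2 and at 42.3, 68.0 and 88.4 in control replicates 5, 7 and 8. In the RhoA het libraries 5, 6, 7 and 8 it was at 141.9, 164.6, 80.3 and 98.3 CPM. Control replicate 2 stood far above the rest, and 3 of the 4 RhoA het libraries lay above the other 3 controls. The log2 fold change was -1.19 (SE 0.88, adjusted p 0.9998 in edgeR; exact permutation p 0.971) and turned to 0.87 (SE 0.31, adjusted p 1 in edgeR) without control replicate 2, and with the replicate block it was 0.68 (adjusted p 0.835 in edgeR). Ackr3, the atypical Cxcl12 receptor, exceeded Cxcr4 in level, with 392.9 TPM on average against 55.2, and was at 416.9 ± 176 and 421.9 ± 179 CPM.

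For the adhesion molecules, Itgb1, the shared beta chain of the integrins that bind Vcam1, was at 931.9 ± 179 and 932.9 ± 192 CPM (log2 fold change 0.0016, SE 0.20). Itga4, the alpha chain of the main Vcam1 receptor of blood cells, was at 0.92 ± 0.40 and 1.66 ± 1.72 CPM. RhoA het replicate 8 was highest for Itga4, at 4.01 CPM. The log2 differences of Itga4 for numbers 5, 7 and 8 were -0.91, -0.69 and 1.36, and the replicate block gave 0.047 (SE 0.57). The polysialyltransferases that modify Ncam1 were low, with St8sia2 at 7.49 ± 2.56 and 5.74 ± 3.73 CPM and St8sia4 at 0.44 ± 0.34 and 1.62 ± 1.65. Among tetraspanins related to Cd82, Cd9 averaged 1011 ± 144 and 979.5 ± 147 CPM and Cd81 803.5 ± 95.2 and 884.8 ± 61.2 (log2 fold changes -0.045, SE 0.16, and 0.14, SE 0.13).

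The smallest unadjusted p in the list belonged to St8sia4 (log2 fold change 1.82, p 0.0466), Podxl (1.59, p 0.075), a sialomucin of the Cd34 family, and Ramp3 (0.79, p 0.123), none of them called (adjusted p 0.9998 in edgeR). All 3 were highest in RhoA het replicate 6: Podxl was at 78.4 CPM there and at 2.69 to 13.8 elsewhere, and St8sia4 at 4.04 against 0.053 to 1.23. Without that library the log2 fold changes were 0.82 for St8sia4, 0.12 for Podxl and 0.54 for Ramp3. Podxl is also an endothelial gene, and the part of endothelial RNA was not tested.

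A further 15 surface genes used as muscle stem cell markers or niche receptors, all of which passed the filter, gave 0 calls (0 of 15 in edgeR, DESeq2 and limma on log2 TPM, and 0 at an unadjusted p under 0.05 in each), with a median log2 fold change of 0.014 and a range from -0.39 to 0.22. The syndecan Sdc4 was the most abundant of those named, at 5575 ± 2490 and 5342 ± 1759 CPM, and Sdc3 was at 21.8 ± 6.5 and 25.4 ± 6.27. Like Tnfrsf12a and Cd82, Sdc4 was highest in CPM in control replicate 2, at 9209. Cdh15, which encodes M-cadherin, was at 182.8 ± 41.1 and 158.2 ± 27.8 CPM (log2 fold change -0.21, SE 0.18), and Itga7, used beside Vcam1 for sorting, had a log2 fold change of 0.018 (SE 0.23).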

How the data were processed

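RNA-seq counts and TPM of 8 libraries were used. Per the file headers, the deposited counts are fragments per gene, counted by featureCounts 1.6.4 (paired-end) on the exons of GENCODE mouse release 34 (mm39), from STAR alignments, with no strand or multi-mapping option. The deposited TPM equalled counts per length, scaled per library, within a relative difference of 2e-14. The counting command named 10 libraries, and the 2 not in the table were not analysed here. Symbols came from GENCODE release 21 identifiers (51884 of 57180 genes matched). Promoter sequences are RefSeq's, on GRCm38.p6, and share no coordinates with the counts.

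Genes were filtered with filterByExpr, scaled by TMM and tested with edgeR 4.0.16 (quasi-likelihood, R 4.3.3) over all 8 libraries without covariates, with Benjamini-Hochberg adjustment over 15660 genes and a threshold of 0.05. Log2 CPM used a prior count of 2. Standard errors came from the F statistic. Scripts were tested on simulated data. Libraries of a group differed by a chi-square per degree of freedom of at least 48.6, so none was entered more than once within a group. Libraries of different groups were not compared in this way. Same-numbered libraries deviated together (correlations of 0.544, 0.231 and 0.488 for numbers 5, 7 and 8), so these numbers were taken as pairs; the labels do not say what they stand for.

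Alternatives were DESeq2 1.42.0 (test and size factors), total counts, no filter, limma 3.58.1 on log2(TPM + 1) and log2(TPM + 0.1), the replicate block, and left-out libraries. Leaving out both libraries numbered 5 together with RhoA het replicate 6, and averaging same-numbered libraries in the test of the TPM order, were added after seeing the data. The members, gene lists and tests were chosen with earlier results of these data known. The named genes are the 8 members, the direct ligands, co-receptors, modifying enzymes and classic sorting markers of the lists, the 3 list genes with the smallest p where none was called, and the 2 nearest profiles per member; Lyz2, Itgam, C1qa, Cd3e, Acta1 and Atp2a1 were added after their values were seen. The myofibre, mural, fibro-adipogenic, Schwann and erythroid lists, measured the same way, are given with the limits.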

Additional observations from a re-analysis of the deposited data

Results flagged for a closer look

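Cxcr4 in RhoA het replicate 8, at 18.2 CPM, lay far below the other RhoA het libraries, at 33.7 to 35.04 CPM (Dixon's ratio 0.939, above the 95% critical value for 4 samples). It was the single such library among the 16 groups of 4 tested, of which chance flags about 1 in 20. The control library of the same number held 21.04 CPM, the lowest of the controls.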

How the results depend on the processing

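None of the 8 surface markers, of the partner genes or of the other surface genes was called in edgeR or under any of the 18 alternatives. Over all genes the count called was 0 in edgeR and under 17 of them, and 2 with the replicate block over the 3 pairs (Acta1 and Atp2a1). The fold changes of Cd82 (-0.24 to -0.057), Ncam1 (0.17 to 0.45), Tnfrsf12a (-0.52 to -0.17) and Met (-0.34 to -0.075) kept their sign under all 18. The other 4 genes did not. Leaving out 1 library gave -0.19 to 0.13 for Calcr, -0.15 to 0.34 for Vcam1, -0.28 to 0.062 for Cd34 and -0.19 to 0.27 for Cxcr4. Calcr was 0.013 with total counts, 0.059 and 0.060 with limma on log2(TPM + 1) and log2(TPM + 0.1), and 0.097 without both libraries numbered 5; Cxcr4 was 0.074 and 0.076 in the limma fits. Vcam1 was -0.0028 with the replicate block, -0.0072 in the same 6 libraries without it, and -0.074 without the libraries numbered 5 and RhoA het replicate 6. No scaling moved the median of all genes by more than 0.086. The block changed no call of a surface marker. In the order of TPM, Ncam1 exceeded Cd34 by 0.645 (log2) in the 6 paired libraries (exact permutation adjusted p 0.0438). Those 6 leave out control replicate 2 and RhoA het replicate 6, where Cd34 stood above Ncam1. The ratio of this pair was 0.171 without both libraries numbered 5 (exact permutation adjusted p 0.344). It was 0.276 with same-numbered libraries averaged, above 0 in 3 of 5 units (exact permutation adjusted p 0.4375). Without both libraries numbered 5, where 6 libraries remain and the smallest exact p is 0.0312, the log2 ratios were 1.40 for Cd82 over Vcam1, 2.55 for Vcam1 over Ncam1, 1.14 for Cd34 over Calcr and 0.577 for Calcr over Cxcr4, each with an adjusted p of 0.0547. With same-numbered libraries averaged into 1 unit they were 1.36, 2.60, 0.918 and 0.629 in that order (exact permutation adjusted p 0.109). The other lists had median log2 fold changes, without and with the block, of -0.091 and -1.21 (myofibre), 1.01 and -1.47 (erythroid), 0.26 and 0.028 (fibro-adipogenic), 0.14 and 0.12 (mural) and 0.17 and 0.16 (Schwann, which holds Ncam1). Intervals of about 0.4 to 0.7 on either side of the fold changes limit what these 8 libraries can show.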
